A study of Mus musculus with 10 samples.

Results

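The comparison described here is the shift between mice fed LB81 yogurt and control mice that was common to 5 tissues, the jejunum and ileum of the small intestine, the distal colon, the liver and the spleen. It used all 10 arrays of the study, 5 from yogurt-fed mice and 5 from control mice, with the tissue as a block. The member genes were those above the array median on at least 1 of the 2 arrays of every tissue, 10383 of the 18193 genes with a named probe set. At the threshold of this rule, Lin7b passed through the yogurt array of distal colon, at 5.4858 against an array median of 5.4856, while Dab1 did not, at 5.4849 there. Where a gene had several probe sets, the brightest on average was taken. For every member the 5 differences, yogurt minus control within a tissue on the log2 scale, and their mean were computed. Sets of 5 values below run in the order jejunum, ileum, distal colon, liver, spleen. The mean of the 5 differences is called the mean shift, and 1 on this scale is a doubling of signal.

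LB81 yogurt is a fermented milk whose starters are the bacteria Lactobacillus bulgaricus and Streptococcus thermophilus. All mice were males of ICR, an outbred stock, kept singly under specific-pathogen free conditions and killed at 28 months of age. From 8 months of age the yogurt group ate AIN-93, a purified rodent diet, with 1 to 2% LB81 yogurt, and the control group ate AIN-93 alone. RNA of 10 yogurt-fed mice and of 9 control mice was pooled in equal amounts for each tissue, so that each tissue had 1 array per diet. The 5 tissues came from the same mice. The p-values below therefore measure how evenly a difference ran over the tissues of these pools, not the spread between mice. Any difference between the mice of the pools other than diet, including their genetic makeup, cannot be told apart from the diet. The labels give no hour of tissue collection. In a tissue, fewer cells of a type and less RNA per cell cannot be told apart either.

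The array medians lay between 5.424 and 5.496, and values below an array's median were raised to it, which is called the floor. Of 23 defining markers of the tissues, 19 were matched, and 16 of these were higher in every array of their own tissue than in any array of the others. The exceptions were Car1, Car4 and Apoa1. The difference in the 3' to 5' ratio of Gapdh, a sign of RNA quality, lay between -0.12 in liver and 0.28 in spleen, and that of actin between -0.19 in liver and 0.08 in spleen. The part of RNA quality in the results was not tested.

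A shift common to organs as unlike as gut, liver and spleen can only involve genes that all of them express. Several such programmes are well described. Heat shock factor raises the genes of chaperones, which fold proteins, through heat shock elements in their promoters, while the cold-inducible RNA-binding protein Cirbp moves opposite to body temperature. The circadian clock runs in nearly every cell: Clock and Bmal1 (Arntl) drive the Per, Cry and Rev-erb genes, whose proteins repress them in turn, and Dbp, Tef and Hlf carry the rhythm to output genes. Calprotectin, made of S100a8 and S100a9, is the most abundant cytosolic protein of neutrophils, and acute phase proteins such as Saa3 and Lcn2 accompany inflammation.

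Most genes differed little between the diets. The median of the mean shift over the 10383 genes was -0.03, and the middle 90% of genes lay between -0.16 and 0.11. The median SD of a gene's 5 differences was 0.12. Only 3 genes were on average at least 2-fold higher under yogurt, BC018473, Saa3 and S100a8, and 0 were at least 2-fold lower. The limma fit, with 4 residual degrees of freedom per gene, called 3 genes higher and 6 lower at a Benjamini-Hochberg adjusted p under 0.05, which is 0.0289% and 0.0578% of the genes tested. At an unadjusted p under 0.05 there were 272 higher genes (2.62%) and 1051 lower genes (10.1%). An exact sign-flip test of a single gene over 5 pairs cannot give a two-sided p below 0.0625.

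**Figure D1:**
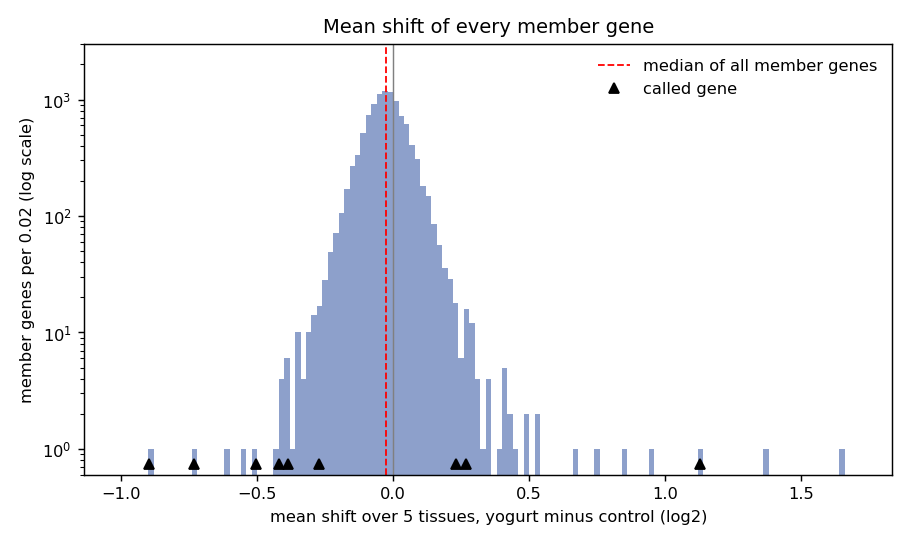
Number of member genes (vertical axis, log scale) by mean shift over 5 tissues, yogurt minus control in log2 units (horizontal axis), in steps of 0.02. The distribution is narrow around its median of -0.03, and triangles mark the 9 called genes, 6 on the lower side and 3 on the higher side.

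A shift was counted as even where the 5 differences had the same sign and each was at least 0.1 in size. Even shifts were found in 22 genes that were higher under yogurt (0.212% of the members) and 98 that were lower (0.944%). The same sign in all 5 tissues, at any size, was seen in 262 higher genes (2.52%) and 1177 lower genes (11.3%). The surplus of lower genes depended on the scaling. Of the genes with an even shift, 81.7% were lower as deposited, against 58.7% once each tissue's differences were centred on their median and 66.3% after quantile normalization. Centring left 38 higher (0.366% of members) and 54 lower genes (0.52%), and quantile normalization 30 higher (0.289%) and 59 lower genes (0.568%). The shares of lower genes among those of 1 sign in all 5 tissues were 81.8%, 52.7% and 59.8% in the same order. Centring left 560 higher (5.39%) and 624 lower genes (6.01%) of this kind, and quantile normalization 461 (4.44%) and 686 (6.61%). After centring 51.8% of members had a mean shift above 0. The number of calls hardly moved, with 4 higher (0.0385%) and 6 lower genes after centring and 3 and 6 after quantile normalization. The medians of the differences were -0.01 in jejunum, -0.04 in ileum, -0.02 in distal colon, -0.03 in liver and -0.05 in spleen.

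The tissues did not form 1 block of shared differences. Across the 10383 genes, Spearman's rho between the differences of 2 tissues was 0.28 for jejunum and ileum, 0.25 for jejunum and distal colon, 0.24 for liver and spleen and 0.18 for ileum and spleen. It was 0.12 for ileum with distal colon and with liver, 0.02 for jejunum with liver, and -0.0003 for distal colon with liver. It was negative for spleen with jejunum (-0.10) and with distal colon (-0.07). These are correlations across genes, which are not independent, between tissues of the same 2 pools of mice. A difference of at least 0.1 in size was seen in 42.9% of genes in distal colon, the lowest share, and in 57.1% in spleen, the highest.

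Cirbp fell in all 5 tissues. Its product binds RNA and is made in larger amounts when body or cell temperature is low. The deposited log2 level of Cirbp under yogurt was 7.57 in jejunum, 7.95 in ileum, 8.52 in distal colon, 7.58 in liver and 8.02 in spleen. In control mice it was 7.999, 8.61, 9.24, 8.27 and 9.18 in the same tissues. The yogurt array was the lower in every tissue, by least in jejunum (-0.43) and by most in spleen (-1.16). The mean shift of Cirbp was -0.73 ± 0.26 (SD over 5 tissues), a 1.66-fold lower level, with a limma SE of 0.09 and an adjusted p of 0.016. Rbm3, the other well known cold-inducible gene, is measured by probe sets annotated to several genes and was not used here. The RefSeq table (build GRCm38.p6) gives 2 start sites for Cirbp. The upstream window, chr10:80167589-80167888 on the plus strand, is shown because it holds a match to the mild cold response element, the only such match in the 2 windows, in capitals.
Cirbp promoter: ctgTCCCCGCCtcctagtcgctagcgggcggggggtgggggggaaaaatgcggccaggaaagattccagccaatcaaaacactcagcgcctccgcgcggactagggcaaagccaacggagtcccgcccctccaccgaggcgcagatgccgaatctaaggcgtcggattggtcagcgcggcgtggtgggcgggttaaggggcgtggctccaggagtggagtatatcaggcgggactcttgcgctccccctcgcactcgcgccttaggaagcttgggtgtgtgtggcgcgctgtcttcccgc
The motif was searched as TCCCCGCC on both strands and occurs in 1768 of 32851 promoter windows (5.38%), so a match is common. A window holds the bases just before a start site and the first transcribed ones.

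Chaperone genes leaned the other way. Hspe1, which encodes the small mitochondrial chaperonin that caps the Hspd1 ring, rose in all 5 tissues. Its level was 11.99 in jejunum, 11.49 in ileum, 11.32 in distal colon, 12.17 in liver and 11.60 in spleen under yogurt, against 11.74, 11.18, 11.08, 12.01 and 11.42 in control mice. The 5 differences lay close together, from 0.17 in liver to 0.31 in ileum. The mean shift was 0.23 ± 0.06 (SD over 5 tissues), a 1.17-fold higher level, with a limma SE of 0.03 and an adjusted p of 0.029. A second probe set of Hspe1 gave a mean of 0.24 ± 0.07 and was also higher in every tissue.

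Of the 18 chaperones among the members, 15 had a mean shift above 0, where 35.2% of all members did, and their median was 0.06 against -0.03 for all members. Hspe1 alone was called, and 8 were higher at an unadjusted p under 0.05, where 2.62% of all members were. Higher in all 5 tissues were Hspe1 and 4 others, where 2.52% of all members were. Hsph1, an Hsp110 nucleotide exchange factor, differed by 0.39, 0.45, 0.18, 0.11 and 0.28 (adjusted p = 0.10). Its second probe set was higher in every tissue too, by 0.04 to 0.61. Chordc1, an Hsp90 co-chaperone, differed by 0.19, 0.21, 0.25, 0.27 and 0.08 (adjusted p = 0.11). Dnaja1 and Hsp90aa1 had mean shifts of 0.09 ± 0.04 and 0.10 ± 0.08. Hspa1b, the inducible Hsp70, was higher in 4 of 5 tissues, with 0.32, 0.38, -0.05, 0.32 and 0.08. Hspd1, the partner of Hspe1 that shares its promoter region, had 0.03 ± 0.06, and Hspa4 was at -0.11 ± 0.08, lower in 4 tissues.

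Promoters of 3 of these genes are shown for their heat shock elements, searched on both strands as the triplets GAA, TTC and GAA with 2 bases between neighbours, and printed in capitals. The windows are chr1:55087898-55088197 (plus strand) for Hspe1, chr5:149636266-149636565 (minus strand, the first of 2 starts) for Hsph1 and chr9:18292017-18292316 (plus strand) for Chordc1, all from RefSeq on GRCm38.p6.
Hspe1 promoter: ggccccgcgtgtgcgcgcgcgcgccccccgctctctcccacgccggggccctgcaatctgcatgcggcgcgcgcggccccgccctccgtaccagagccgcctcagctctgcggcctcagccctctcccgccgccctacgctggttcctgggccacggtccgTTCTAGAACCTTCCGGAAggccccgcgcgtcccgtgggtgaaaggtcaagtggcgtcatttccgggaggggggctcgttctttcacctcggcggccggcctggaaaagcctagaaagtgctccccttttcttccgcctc
Hsph1 promoter: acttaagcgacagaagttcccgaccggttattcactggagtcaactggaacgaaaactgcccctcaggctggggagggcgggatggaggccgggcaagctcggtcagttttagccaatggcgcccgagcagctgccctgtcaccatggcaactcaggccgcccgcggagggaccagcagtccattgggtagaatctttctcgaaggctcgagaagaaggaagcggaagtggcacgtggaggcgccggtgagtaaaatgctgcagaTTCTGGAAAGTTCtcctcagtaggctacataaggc
Chordc1 promoter: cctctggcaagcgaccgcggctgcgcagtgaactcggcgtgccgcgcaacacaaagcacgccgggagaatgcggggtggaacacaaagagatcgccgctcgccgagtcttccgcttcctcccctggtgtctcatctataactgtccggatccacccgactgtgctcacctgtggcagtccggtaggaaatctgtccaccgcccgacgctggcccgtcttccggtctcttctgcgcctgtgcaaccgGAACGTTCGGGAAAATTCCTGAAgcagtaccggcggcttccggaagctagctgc
The capitals cover 2 overlapping matches in Hspe1, 1 in Hsph1 and 3 overlapping matches in Chordc1. Of all 32851 windows, 198 (0.603%) hold the motif. By gene it occurs in 4 of the 16 chaperone members that have a window, Hsph1, Hspd1, Hspe1 and Chordc1, against 0.662% of 27025 genes. A match describes the letters of the window and not binding.

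**Figure D2:**
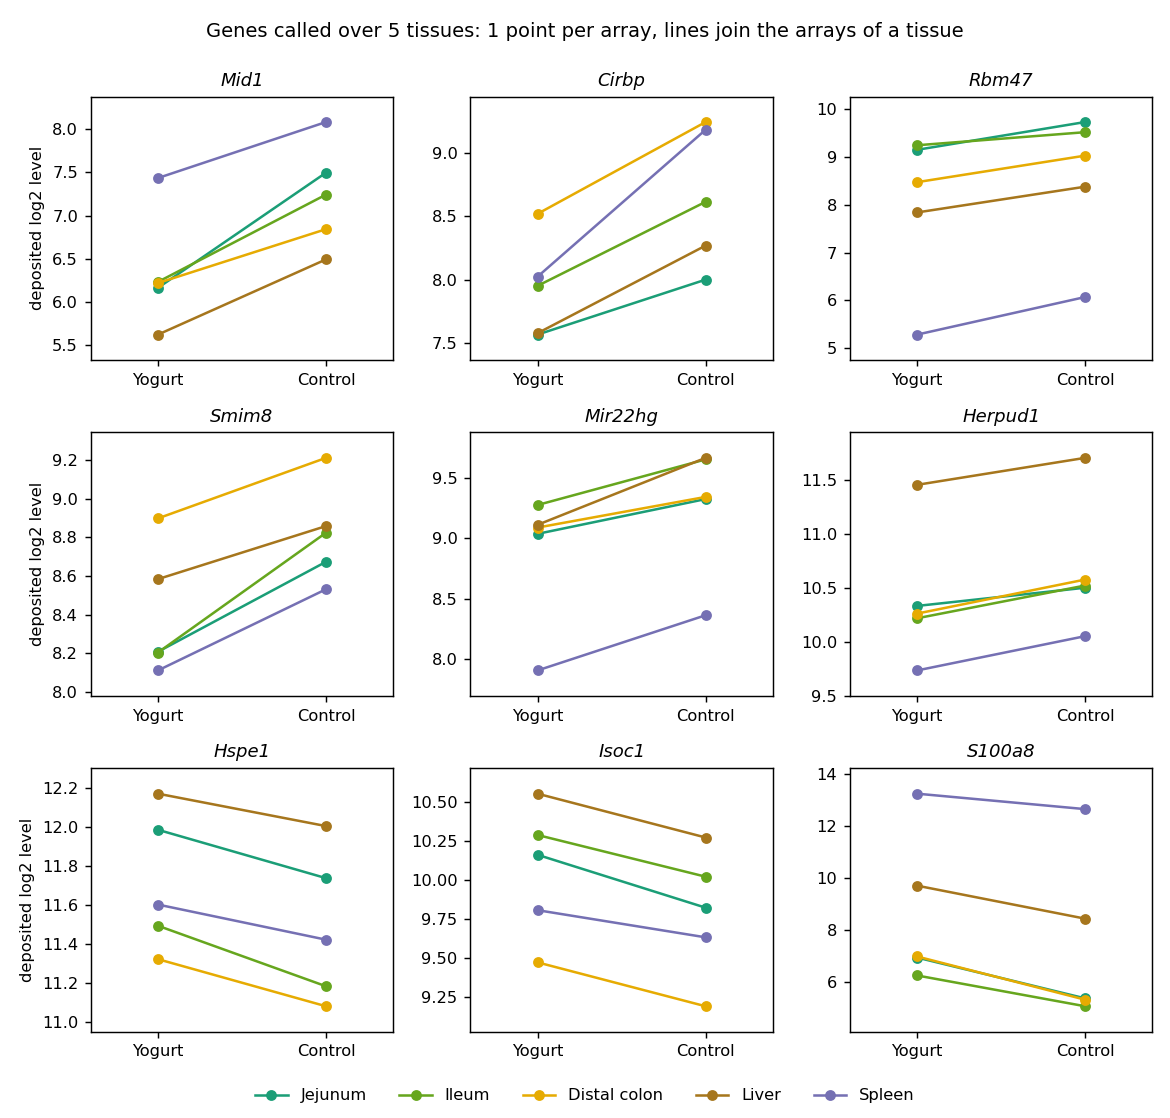
Deposited log2 level (vertical axis) of the 9 called genes on the yogurt array (left) and the control array (right) of each tissue. Each colour is a tissue and each line joins its 2 arrays. All lines climb to the right in Mid1, Cirbp, Rbm47, Smim8, Mir22hg and Herpud1 and descend in Hspe1, Isoc1 and S100a8.

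Of the called decreases, that of Mid1 was the largest. Mid1 is an X-linked gene for a microtubule-bound ubiquitin ligase, and its level was 6.16 in jejunum, 6.23 in ileum, 6.22 in distal colon, 5.62 in liver and 7.43 in spleen under yogurt, against 7.50, 7.24, 6.84, 6.49 and 8.08 in control mice. The decrease was widest in jejunum (-1.33) and narrowest in distal colon (-0.62). The mean shift of Mid1 was -0.90 ± 0.29 (SD over 5 tissues), or 1.86-fold lower (limma SE 0.10, adjusted p = 0.013). Both other probe sets of Mid1 lay below the floor, so the result rests on 1 probe set.

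Rbm47, an RNA-binding protein of epithelial cells that takes part in apolipoprotein B mRNA editing, had levels of 9.15, 9.24, 8.47, 7.84 and 5.29 under yogurt, against 9.73, 9.52, 9.03, 8.38 and 6.07 in control mice. It fell by 0.50 ± 0.13 on the log2 scale in the mean (limma SE 0.06, adjusted p = 0.013). The spleen array of the yogurt group lay below the floor, so the difference there, -0.58, is a bound. In spleen Rbm47 met the rule for members through the control array alone, so its sign there followed from the rule. Another bright probe set of Rbm47, with a mean level of 8.21, showed a mean shift of only -0.01 ± 0.07, between -0.08 and 0.10, so the 2 probe sets disagree.

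Herpud1, an endoplasmic reticulum membrane protein of the pathway that clears misfolded proteins and a target of the unfolded protein response, fell by a small and very even amount. Its level was 10.33, 10.22, 10.26, 11.45 and 9.73 under yogurt, against 10.50, 10.52, 10.58, 11.70 and 10.05 in control mice. The differences ran from -0.17 in jejunum to -0.32 in distal colon and spleen, with a mean shift of -0.27 ± 0.06 (limma SE 0.04, adjusted p = 0.029). A second probe set of Herpud1 gave -0.26 ± 0.12 and was also lower in every tissue. Of 18 members of the unfolded protein response list, 11 had a mean shift above 0, where 35.2% of all members did, and 7 below. The median was 0.01. Besides Herpud1, the 1 other gene of the list to be lower in all 5 tissues was Pdia3, a disulfide isomerase, by 0.01 to 0.13. The Herpud1 window, chr8:94386179-94386478 on the plus strand, is shown because it holds an endoplasmic reticulum stress element II, searched on both strands as ATTGG and CCACG with 1 base between them, printed in capitals, and found in only 12 of 32851 windows (0.0365%).
Herpud1 promoter: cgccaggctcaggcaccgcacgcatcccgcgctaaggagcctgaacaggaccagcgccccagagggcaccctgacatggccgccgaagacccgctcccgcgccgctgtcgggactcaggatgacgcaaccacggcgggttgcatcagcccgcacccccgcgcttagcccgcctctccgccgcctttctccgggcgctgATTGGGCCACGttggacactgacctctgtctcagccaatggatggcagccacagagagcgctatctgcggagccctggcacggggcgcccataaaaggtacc

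Mir22hg is the host transcript of the microRNA miR-22. Its level was 9.04, 9.27, 9.09, 9.11 and 7.91 under yogurt, against 9.32, 9.65, 9.34, 9.66 and 8.36 in control mice. It fell in all 5 tissues, least in distal colon (-0.25) and most in liver (-0.55). The mean shift was -0.39 ± 0.12 (limma SE 0.05, adjusted p = 0.029). RefSeq places both arms of miR-22 inside this gene, at chr11:75463734-75463755 and chr11:75463772-75463793 on the plus strand of GRCm38.p6. They are shown with the seed (bases 2 to 8) in capitals, because the array measured the host transcript and not these products.
miR-22-5p: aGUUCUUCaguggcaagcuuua
miR-22-3p: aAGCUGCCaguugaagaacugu

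Smim8, a small membrane protein, had levels of 8.21, 8.20, 8.90, 8.58 and 8.11 under yogurt, against 8.67, 8.82, 9.21, 8.86 and 8.53 in control mice. It fell in every tissue, with a mean shift of -0.42 ± 0.14 (limma SE 0.06, adjusted p = 0.029). Isoc1, an isochorismatase-domain protein found in peroxisomes, had levels of 10.16, 10.29, 9.47, 10.55 and 9.81 under yogurt, against 9.82, 10.02, 9.19, 10.27 and 9.63 in control mice. The probe set used for Isoc1 was higher in all 5 tissues by 0.27 ± 0.06 (limma SE 0.04, adjusted p = 0.036). Its 3 other probe sets were all slightly lower in the mean, by -0.06 to -0.13, and the mean over all 4 probe sets had a shift of -0.006. The direction of Isoc1 is therefore that of 1 probe set only.

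S100a8, a subunit of calprotectin, showed the largest called increase. Its level under yogurt was 6.96 in jejunum, 6.27 in ileum, 6.997 in distal colon, 9.71 in liver and 13.24 in spleen, against 5.39, 5.09, 5.34, 8.45 and 12.65 in control mice. The 3 gut arrays of the control group lay below the floor, so the gut differences of 1.47, 0.79 and 1.51 are lower bounds. Liver and spleen, where both arrays were well above the floor, differed by 1.27 and 0.59. With these bounds the mean shift was 1.13 ± 0.41, at least 2.18-fold higher (limma SE 0.12, adjusted p = 0.013). In the gut S100a8 met the rule for members through the yogurt arrays alone, and it was not tested where both arrays had to be above the median. Its partner S100a9 was higher in all 5 tissues, by 1.20, 0.03, 1.00, 1.25 and 0.74, and was not called (adjusted p = 0.079). The gut control arrays of S100a9, at 5.13, 4.89 and 4.91, also lay below the floor. In the gut S100a9 too met the rule through the yogurt arrays alone, so its gut differences are lower bounds. The ileum difference of S100a9 is small because its yogurt level there, 5.51, barely passed the floor.

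Other genes of neutrophils and of the acute phase were higher with them in these pools. Of the 6 neutrophil genes among the members, 5 had a mean shift above 0, where 35.2% of all members did, with a median of 0.52. Higher in every tissue were 4, where 2.52% of all members were. S100a8 and S100a9 are among these 4, and their sign in the gut followed from the rule for members. Over the neutrophil genes above the median on both arrays of every tissue, the median was 0.02. Csf3r, the receptor of the growth factor of neutrophils, differed by 0.19 in jejunum and by 0.11 to 0.13 in the other tissues. Lcn2, which binds bacterial siderophores, was higher by 1.19, 0.60, 0.18, 0.45 and 1.35 (adjusted p = 0.11). Il1b was at -0.10 ± 0.19. All 17 matched neutrophil genes, summed on the linear scale, came to a log2 level between 9.53 and 15.09 over the yogurt arrays and between 9.23 and 14.23 over the control arrays. Granule genes were not members, because they lay above the floor in few tissues. Ngp had 11.87 in the yogurt spleen and 10.92 in the control spleen, and Ltf had 10.76 in the yogurt spleen and 9.44 in the control spleen. The part of neutrophil number in the S100a8 result was not tested.

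All 7 acute phase genes among the members had mean shifts above 0, where 35.2% of all members did. Their median was 0.13, and 0.42 with the mean of all probe sets of a gene. Saa3, a serum amyloid A made outside the liver too, had levels of 6.61, 6.82, 8.43, 10.41 and 7.72 under yogurt, against 5.51, 6.46, 5.43, 9.28 and 6.42 in control mice. It was higher in every tissue, by 0.37 in ileum and 2.94 in distal colon at the extremes, and was not called (mean 1.37 ± 0.95, adjusted p = 0.11). The control array of distal colon lay below the floor, so 2.94 is a lower bound. There Saa3 met the rule for members through the yogurt array alone, so its sign followed from the rule. Antimicrobial proteins are a list that shares S100a8, S100a9 and Lcn2 with the neutrophil genes. This list had 6 of 7 means above 0, where 35.2% of all members did, and a median of 0.26. Over the antimicrobial genes above the median on both arrays of every tissue, the median was 0.04. Hp, haptoglobin, which binds free haemoglobin, differed by 0.29, 0.28, 0.42, 0.11 and 1.01. Socs3 (0.01 ± 0.33) and Serpina3n (0.02 ± 0.33) had both signs among tissues.

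The gene with the largest mean shift was BC018473, a long non-coding RNA on chromosome 11 of unknown role. Its level under yogurt was 6.70, 7.03, 6.89, 6.21 and 8.92, against 4.68, 4.48, 4.27, 4.47 and 5.61 in control mice. Every yogurt array was above every control array, and 4 of the 5 control arrays were below the floor. In those 4 tissues BC018473 met the rule for members through the yogurt arrays alone. Its sign there followed from the rule, and its differences there are lower bounds. The mean shift of 1.65 ± 0.97, at least 3.14-fold, was not called (adjusted p = 0.079), with the spleen difference of 3.31 far above the 0.78 of liver. Without the floor the mean shift was 2.45 and the adjusted p 0.001, and without the spleen it was 1.24 with an adjusted p of 0.005. Its second probe set was below the floor throughout. The next gene along the chromosome, St6galnac1, which adds sialic acid to mucin-type glycans, was also higher in all 5 tissues, by 0.31, 0.24, 0.21, 0.41 and 0.62 (adjusted p = 0.11).

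**Figure D3:**
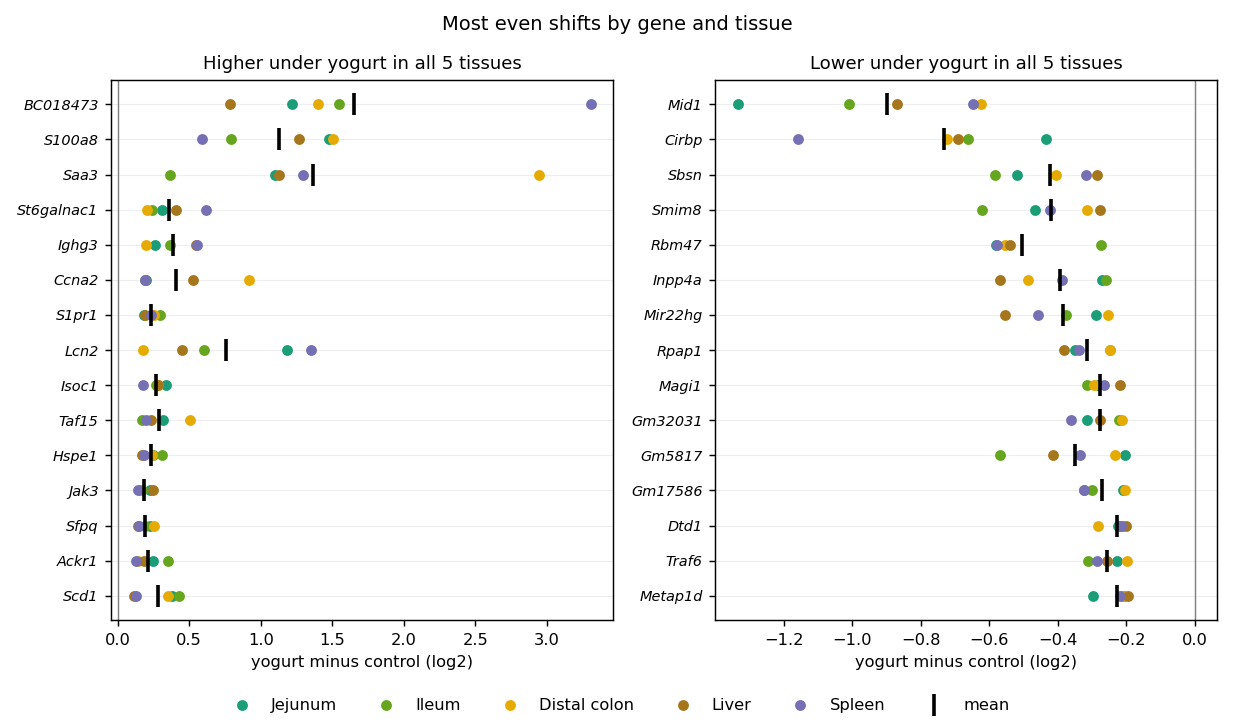
Differences of the 15 higher and the 15 lower genes with the most even shifts, yogurt minus control in log2 units (horizontal axis). Each dot is a tissue, the black bar is the mean of the 5 tissues, and genes are ordered by the difference nearest 0. The dots of BC018473, S100a8 and Saa3 spread widely, while those of Dtd1, Metap1d and Magi1 lie almost on top of each other.

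Below these leaders, the higher genes were small and even. Ighg3, an immunoglobulin heavy chain constant region, was higher by 0.26, 0.37, 0.20, 0.54 and 0.55 (adjusted p = 0.079). Scd1, the desaturase that makes monounsaturated fatty acids, was higher by 0.38, 0.43, 0.35, 0.11 and 0.13 (adjusted p = 0.091), but its second probe set was below the floor in part and was higher in 3 tissues only. Sfpq, a splicing factor of paraspeckles, was higher by 0.14 to 0.25 (adjusted p = 0.079), and after centring on the tissue medians it passed the threshold (mean 0.22, adjusted p = 0.036). Its 5 other probe sets had means of 0.03 to 0.13. S1pr1, the sphingosine phosphate receptor that guides lymphocyte exit, had 0.23 ± 0.05, and Ackr1, a chemokine-binding receptor of venules and red cells, had 0.21 ± 0.09. Jak3, the kinase of the common gamma chain cytokine receptors, had 0.19 ± 0.05, and Taf15, an RNA-binding protein, had 0.29 ± 0.13. None of these genes was called. Of the evenly higher genes outside the leading 15, Tmem71, a membrane protein, had 0.27 ± 0.13, Uhrf2, a ubiquitin ligase, had 0.20 ± 0.13, and Ifi47, an interferon-induced GTPase, had 0.27 ± 0.17.

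Among the lower genes, Dcxr, a carbonyl reductase, came closest to a call, at -0.27 ± 0.05 (adjusted p = 0.053). Inpp4a, a phosphatase of phosphoinositides, was next. Its differences were -0.27, -0.26, -0.49, -0.57 and -0.39 (adjusted p = 0.061), and it passed the threshold without the floor (adjusted p = 0.049). Magi1, a scaffold of tight junctions, had -0.28, -0.31, -0.29, -0.22 and -0.26. Traf6, a ubiquitin ligase of Toll-like receptor signalling, had -0.23, -0.31, -0.20, -0.26 and -0.28, although its second detected probe set was at -0.06 ± 0.09. Dtd1, which removes D-amino acids from tRNA, had -0.23 ± 0.03, and Metap1d, a mitochondrial methionine aminopeptidase, had -0.23 ± 0.04. Sbsn, suprabasin, had -0.42 ± 0.13, and Rpap1, which binds RNA polymerase, had -0.31 ± 0.06. Wider shifts that were less even belonged to Ifi27l2b, an interferon-inducible gene, with -1.09, -0.58, -0.74, -0.42 and -0.19, and Rab30, a Golgi GTPase, with -0.82, -0.80, -0.33, -0.59 and -0.17 (adjusted p = 0.079 for both).

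Of the 168 long non-coding RNAs among the members, 7 were evenly lower (4.17%), where 90 of 10158 protein-coding genes were (0.886%), and 1 was evenly higher. The 7 include Mir22hg, Gm32031 (-0.28 ± 0.06) and Fam120aos (-0.24 ± 0.04). Gm17586, at -0.27 ± 0.06 with most levels between 5.54 and 5.87, lay near the floor. With the members split by level into 4 groups of equal size, evenly lower genes made up 0.847%, 1.62%, 0.925% and 0.385% from the dimmest group to the brightest.

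A second probe set was available for some genes with an even shift. Of the 22 evenly higher genes, 5 had a second probe set above the array median in every tissue. A mean above 0 was seen in 4 of those, where 35.2% of all members had one. Of the 98 evenly lower genes, 24 had one. A mean below 0 was seen in 16 of the 24, where 64.8% of all members had one. Lower in all 5 tissues were 9 of the 24, where 11.3% of all members were. Evenly lower were 2, where 0.944% of all members were. The second probe sets of the lower genes had a median mean shift of -0.10, against -0.21 for the probe sets that were used.

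The clock was lower as a group in its negative arm and output. Of 11 member genes, 10 had a mean shift below 0, where 64.8% of all members did, and the median was -0.22. In all 5 tissues 8 were lower, where 11.3% of all members were. After centring on the tissue medians 6 remained so, where 6.01% of all members were. Among the 8 is Usp2, which met the rule for members in spleen through the control array alone. Its sign in spleen before centring followed from the rule. At an unadjusted p under 0.05, 9 of the 11 were lower, where 10.1% of all members were, but none was called over all members. Per1, a repressor of the loop, had 8.05, 8.09, 8.28, 7.93 and 7.82 under yogurt, against 8.38, 8.24, 8.72, 8.29 and 8.04 in control mice. The yogurt array was lower by 0.14 in ileum up to 0.43 in distal colon (mean -0.30 ± 0.12, adjusted p = 0.089).

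The Rev-erb genes, which repress Arntl, were both lower. Nr1d2 had 10.18, 10.43, 10.92, 11.03 and 9.62 under yogurt, against 10.38, 10.65, 11.06, 11.23 and 9.97 in control mice, with a mean shift of -0.22 ± 0.08 (adjusted p = 0.079). Nr1d1 differed by -0.12, -0.42, -0.38, -0.07 and -0.11. Of the output factors, Tef differed by -0.41, -0.18, -0.38, -0.45 and -0.13 (adjusted p = 0.079), and Hlf by -0.24, 0.20, -0.33, -0.36 and -0.03. Dbp differed by -0.08, 0.08, -0.76, -0.86 and -0.41 on the probe set used, whose ileum level of 13.07 under yogurt and 12.99 in control mice was far above that of its other tissues. The second probe set of Dbp was lower in all 5 tissues, by 0.43 to 0.92.

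Per3 differed by -0.52, -0.31, -0.31 and -0.60 in jejunum, ileum, distal colon and liver and by -0.001 in spleen. Usp2, a clock-controlled deubiquitinase, differed by -0.51, -0.26, -0.37, -0.63 and -0.04, where the spleen value is a bound because the yogurt array lay below the floor. Without the floor its mean shift of -0.45 passed the threshold (adjusted p = 0.021), and without the spleen Tef, Per3 and Usp2 did (adjusted p = 0.039, 0.045 and 0.038). A second probe set of Usp2 had a mean of -0.26 ± 0.35 and was lower in 4 tissues, with 0.34 in the other. Bhlhe40 and Cry2, both repressors, were lower in all 5 tissues with means of -0.22 ± 0.12 and -0.21 ± 0.14. Cry1 was the exception among the members, at 0.08 in jejunum, -0.05 in ileum, 0.23 in distal colon, 0.34 in liver and -0.21 in spleen. Per2, Ciart and Bhlhe41 of this list were not members. Per2 had both signs, at -0.29 in jejunum, 0.11 in ileum, 0.12 in distal colon and -0.32 in liver, and lay below the floor in spleen. Ciart was lower in the same 4 tissues, by least in jejunum (-0.35), and lay below the floor in spleen. Bhlhe41 lay below the floor in every tissue.

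A second clock list held the activators Arntl, Clock and Rora and also Nfil3, a repressor of D-box genes, and its 4 members differed in sign between tissues. Arntl was higher in distal colon (0.40) and liver (0.67), and was at 0.12 in jejunum, -0.17 in ileum and -0.23 in spleen. Nfil3, which opposes Dbp at its sites, was highest in jejunum (0.41) and at -0.21 in spleen. Clock had a mean shift of 0.02 ± 0.16 and Rora of -0.03 ± 0.17. The median difference of the negative arm was -0.20 in jejunum, -0.18 in ileum, -0.33 in distal colon, -0.36 in liver and -0.13 in spleen.

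The RefSeq table holds 2 windows for Per1, and the first, chr11:69098699-69098998 on the plus strand of GRCm38.p6, is shown because it holds both an E-box (CACGTG) and a D-box (TTATGNAA), in capitals.
Per1 promoter: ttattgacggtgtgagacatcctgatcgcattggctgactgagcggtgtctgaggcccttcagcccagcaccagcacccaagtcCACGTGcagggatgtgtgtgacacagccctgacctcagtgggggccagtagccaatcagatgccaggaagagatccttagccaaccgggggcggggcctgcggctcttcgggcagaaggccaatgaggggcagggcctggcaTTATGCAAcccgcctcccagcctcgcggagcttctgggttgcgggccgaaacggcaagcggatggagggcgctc
E-boxes occur in 2349 of 32851 windows (7.15%) and D-boxes in 1112 (3.38%). By gene, 3 of the 10 clock members with a window hold an E-box (Per1, Cry1 and Tef), against 8.09% of genes, and 2 hold a D-box (Per1 and Per3), against 3.99%. Cry1, which holds an E-box, had a mean shift above 0.

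**Figure D4:**
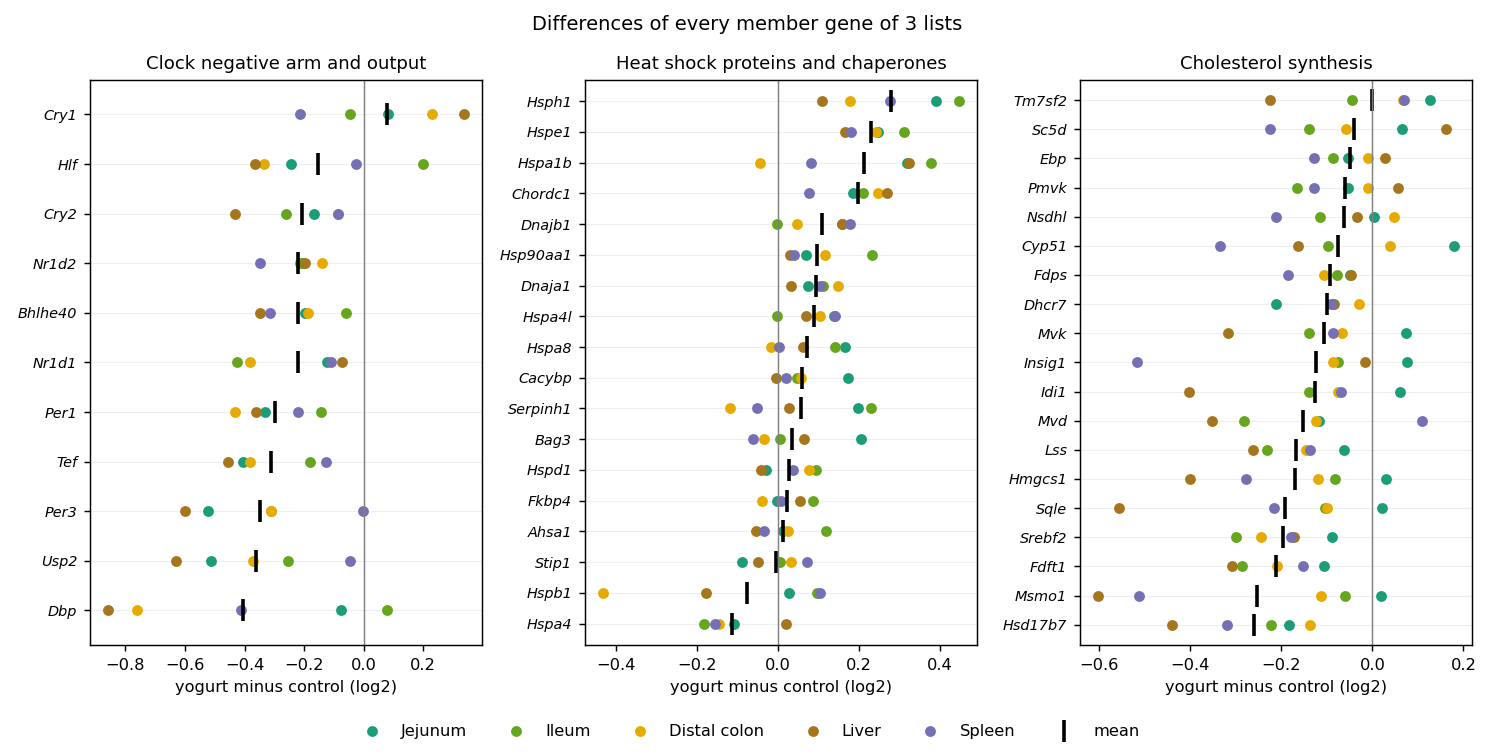
Differences of each member of 3 lists, yogurt minus control in log2 units (horizontal axis). Each dot is a tissue and the black bar the mean of the 5 tissues, with genes ordered by their mean. In the clock list all means but that of Cry1 lie below 0, in the chaperone list 15 of 18 lie above 0, and in the cholesterol list all 19 lie below 0.

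Cholesterol synthesis was the metabolic list furthest below 0. All 19 members had a mean shift below 0, where 64.8% of all members did, with a median of -0.12, and 18 did after centring, where 48.2% of all members did. Lower in all 5 tissues were 6 of them, where 11.3% of all members were. At an unadjusted p under 0.05, 9 were lower, where 10.1% of all members were, with none called. Fdft1, squalene synthase, had 9.41, 10.57, 10.33, 10.77 and 8.41 under yogurt, against 9.51, 10.86, 10.54, 11.08 and 8.56 in control mice, and a mean shift of -0.21 ± 0.09 (adjusted p = 0.11). A second probe set of Fdft1 was lower in every tissue as well, at -0.25 ± 0.15. Hsd17b7, a later enzyme of the pathway, had -0.18, -0.22, -0.14, -0.44 and -0.32 (adjusted p = 0.11). Other detected probe sets of Hsd17b7 were weaker. The first had -0.15 ± 0.12 and was lower in every tissue, and the next had -0.07 ± 0.31 and was lower in 4 tissues, with 0.40 in the other. Srebf2, the transcription factor that drives the pathway, had -0.09, -0.30, -0.24, -0.17 and -0.18. Msmo1 and Sqle, both at 0.02 in jejunum, reached -0.60 and -0.56 in liver. The list's median was 0.00 in jejunum and -0.22 in liver.

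Fatty acid oxidation was lower by smaller amounts. All 20 members had means below 0, where 64.8% of all members did, with a median of -0.06. After centring 19 were below 0, where 48.2% of all members were. Only Eci2, Decr1 and Ech1, enzymes that handle unsaturated fatty acids, were lower in every tissue, where 11.3% of all members were. Their means were -0.13 ± 0.07, -0.13 ± 0.09 and -0.10 ± 0.08. Acaa1a, a peroxisomal thiolase, ranged from 0.01 in distal colon to -0.61 in spleen. Distal colon ran against the others, with a list median of 0.09. Lipogenesis had 13 of 18 means above 0, where 35.2% of all members did, and a median of 0.07, which was 0.003 without the liver. Its synthase Fasn was at 0.77 in liver and at most 0.12 elsewhere.

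Cell cycle genes had 19 of 20 means above 0, where 35.2% of all members did, with a median of 0.10. The list's median was 0.001 in jejunum (10 of 20 higher) and 0.03 in ileum (14 of 20 higher). It was 0.14 in distal colon (16 of 20 higher), 0.28 in liver (20 of 20 higher) and 0.08 in spleen (17 of 20 higher). Ccna2, cyclin A, was higher by 0.20, 0.19, 0.92, 0.52 and 0.19, and Mki67 by 0.11, 0.12, 0.37, 0.48 and 0.10. A second probe set of Ccna2 had a mean of 0.10 ± 0.17 and was higher in 4 of 5 tissues. Distal colon and liver held the larger differences of both genes on the probe sets used, and neither gene was called (adjusted p = 0.18 and 0.21). Splicing regulators had 15 of 22 means above 0, where 35.2% of all members did. Higher in all 5 tissues were 7 of them, where 2.52% of all members were. Among these 7 were Hnrnpa2b1 (0.08 ± 0.01) and Srsf3 (0.06 ± 0.03), with differences of 0.06 to 0.10 and of 0.04 to 0.10. Tra2a was higher by 0.51, 0.31, 0.39, 0.04 and 0.13. Srsf5 went the other way in every tissue, with -0.19, -0.24, -0.30, -0.44 and -0.05 (adjusted p = 0.11).

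Interferon-stimulated genes had 22 of 29 means above 0, where 35.2% of all members did, and a median of 0.07. The list's median was below 0 in ileum (-0.04, 13 of 29 higher) and spleen (-0.07, 11 of 29 higher). Iigp1, an immunity-related GTPase, was higher by 0.66, 0.51, 0.69, 0.07 and 0.13, and Cxcl9, a chemokine for T cells, by 0.03, 0.13, 0.84, 0.45 and 0.30, while Irf7 was lower in every tissue (mean -0.16 ± 0.11). A second probe set of Iigp1 had a mean of 0.32 ± 0.30 and was higher in 4 of 5 tissues. Metallothioneins and zinc transporters had 5 of 5 means below 0, where 64.8% of all members did. After centring 3 of 5 were below 0, where 48.2% of all members were. The list's median was above 0 in distal colon (0.06) and liver (0.05) and between -0.21 and -0.15 in the other tissues. Mt1 was at -0.36, -0.43, -0.33 and -0.27 in jejunum, ileum, distal colon and spleen and at 0.40 in liver, and Mt2 at -0.70, -0.99, -0.34 and -0.28 and at 0.33 in liver. Nrf2 targets had 17 of 21 means below 0 (median -0.05), where 64.8% of all members did. After centring 12 of 21 were below 0, where 48.2% of all members were. p53 targets and senescence genes had 8 of 12 means below 0, where 64.8% of all members did. Their median of -0.06 was -0.02 without the ileum and -0.02 without the spleen. Among them Glb1, the lysosomal beta-galactosidase used as a mark of senescent cells, was lower by 0.27, 0.28, 0.13, 0.16 and 0.33 (adjusted p = 0.11).

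Large housekeeping groups were near the median of all genes. The medians were -0.002 for 22 cytosolic ribosomal proteins, -0.03 for 27 respiratory chain subunits, -0.02 for 25 proteasome subunits, -0.05 for 24 lysosome and autophagy genes and -0.03 for 13 sirtuins and FOXO factors. After centring, the medians of the ribosomal proteins, respiratory chain, proteasome and sirtuin lists were above 0, at 0.03, 0.004, 0.01 and 0.001. Of the 22 ribosomal proteins, 10 had a mean shift above 0 as deposited, where 35.2% of all members did. After centring 21 of the 22 did, where 51.8% of all members did. Immediate early genes (16 members, median -0.06) and glucocorticoid-responsive genes (13 members, -0.07) had no member of 1 sign in all 5 tissues. The amino acid response (16 members) had a median of 0.05. MHC class I and class II presentation had 0.001 and 0.07 over 10 and 7 members.

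Lists of cell types that a dissected tissue can hold mostly changed sign between tissues. The 13 plasma cell genes had 12 means below 0 (median -0.11), where 64.8% of all members did. In spleen 0 of the 13 were higher (median -0.29), and in liver 5 of the 13 were (median -0.12), where Igha was at -1.56. The 4 exocrine pancreas genes had means above 0, where 35.2% of all members did. Their list median was 1.24 in jejunum and between -0.17 and 0.18 in the other tissues. All 17 matched pancreas genes, summed on the linear scale, reached 16.88 at most over yogurt arrays and 15.93 at most over control arrays. Adipocyte genes (10 members) had medians of 0.38 in ileum and 0.24 in distal colon against 0.003 in jejunum, 0.015 in liver and -0.08 in spleen, and Car3 was at 1.77 and 1.98 in ileum and distal colon. The medians of the mean shift were 0.01 for macrophage, -0.07 for B cell, 0.10 for T and cytotoxic lymphocyte, 0.08 for erythroid and 0.06 for platelet genes. They were 0.01 for smooth muscle, -0.005 for collagens and matrix, -0.004 for endothelial and 0.005 for epithelial keratin and junction genes. The medians of matrix and endothelial genes turned to 0.02 and 0.03 after centring and to 0.02 and 0.03 after quantile normalization. The part of these cell types in the shifts above was not tested.

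**Figure D5:**
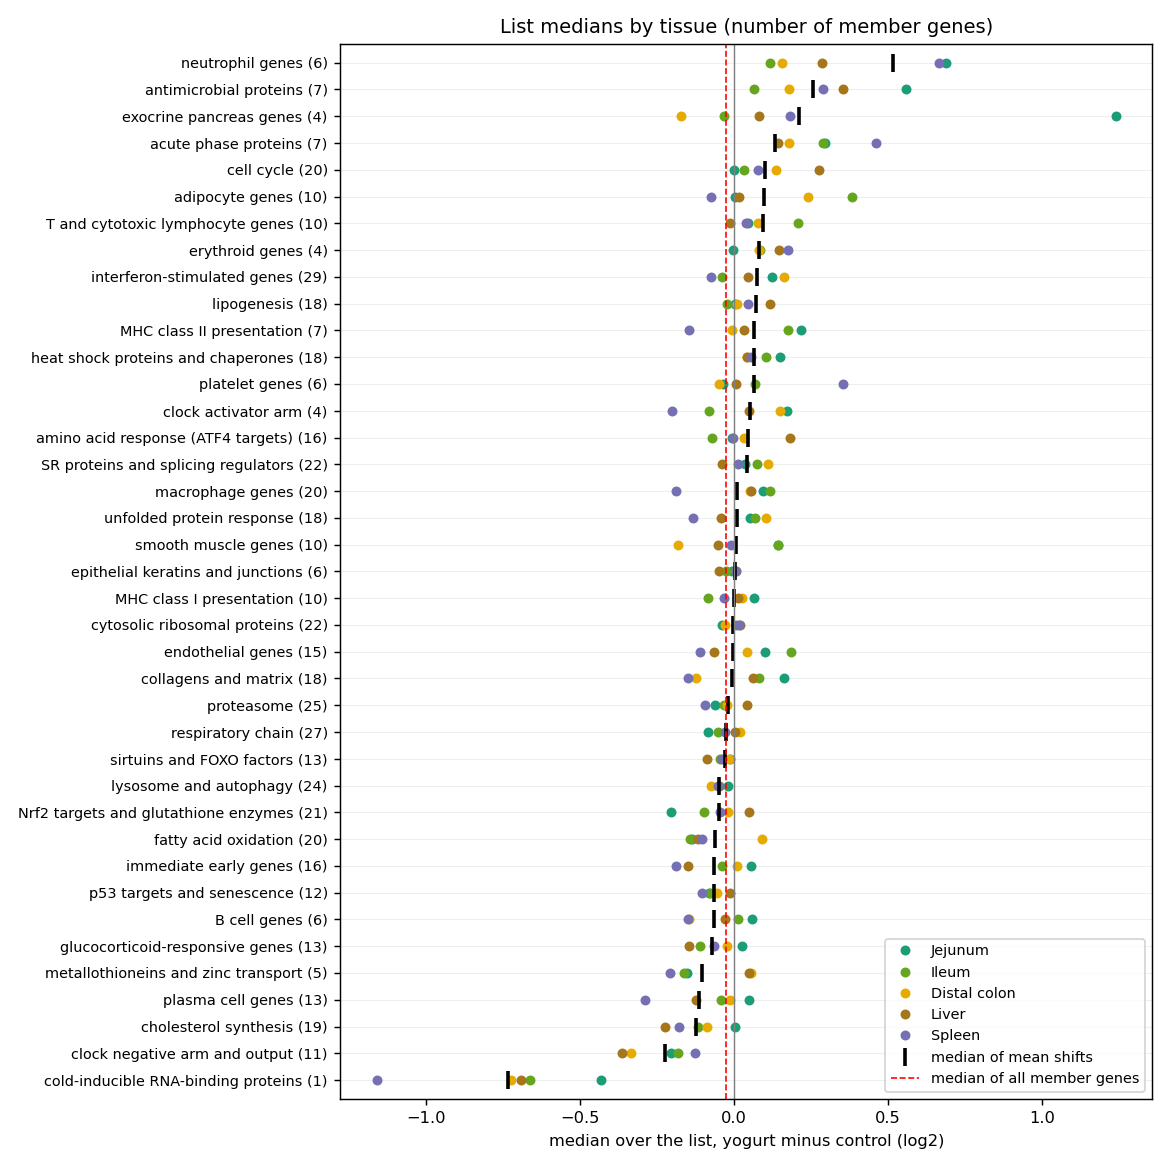
Median difference of 39 gene lists, yogurt minus control in log2 units (horizontal axis), with the number of member genes in brackets. Dots are tissues, black bars the median of the members' mean shifts, and the dashed line the median of all member genes at -0.03. Neutrophil genes are at the top and Cirbp, alone in its list, at the bottom, with the clock's negative arm next to it.

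The calls were few and rested on several tissues together. Without the spleen 5 genes were called higher and 12 lower, all 9 of the genes above among them. Without the jejunum only Cirbp and Mid1 remained, and without the ileum only Rbm47 and S100a8 with 1 further gene. Without the distal colon or without the liver no gene was called by limma, with 249 and 237 higher and 1006 and 920 lower genes at an unadjusted p under 0.05. These fits have fewer tissues and so fewer degrees of freedom.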

How the data were processed

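RNA of each tissue, pooled over the mice of a diet, was hybridised to Affymetrix mouse arrays, 10 in all. The authors deposited log2 values per probe set, and per the submitters' processing notes MAS5 and affy were used, whose versions and roles are not stated there. No genome build is named for the array values. The promoter windows and the miR-22 positions are from RefSeq on GRCm38.p6. Of 45101 probe sets, 34958 have 1 gene symbol in GEO's platform annotation (34754 matched to RefSeq by gene number), 932 have several and 9211, the 64 controls among them, have none here. Only those with 1 symbol were used for genes. Values below an array's median were raised to it before differences were taken, and levels in the text are as deposited. A difference against a raised value is a bound.

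Diet was tested in R 4.3.3 with limma 3.58.1 (lmFit and eBayes with trend) on all 10383 member genes, with tissue as a block, and p-values were adjusted after Benjamini and Hochberg. The block is the tissue given in the labels, shared by 1 array of each diet. An adjusted p under 0.05 is a call. On simulated data with 10383 genes, 3, 24, 46 and 50 of 50 genes changed by 0.15, 0.3, 0.6 and 1 on the log2 scale were called, and 2 unchanged genes. The number of arrays limits the precision. Tables and figures were made with Python 3.11.15, pandas 2.3.3, numpy 2.4.6 and matplotlib 3.10.9.

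The members and the 39 gene lists were chosen with earlier results of these data known. Of 743 listed genes, 677 were matched and 523 were members. Genes named by rule were the called genes, the 15 genes per direction whose smallest difference was largest among even shifts, and up to 4 genes of each list. The other genes in the text were chosen after their values were seen. Alternatives were other floors or none, a pseudocount of 32 in place of the floor, centring, quantile normalization, other filters, the mean of all probe sets, other variance models, no block, and leaving out each tissue.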

Additional observations from a re-analysis of the deposited data

Results flagged for a closer look

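In 12 of the 106 genes named by rule, the difference of 1 tissue, yogurt minus control in log2 units, stood apart from the other 4 by Dixon's test at the 95% level. Chance flags about 1 in 20 groups, but these genes were chosen by the same differences, so that rate need not hold for them. The tissue was liver for Asns, asparagine synthetase, at 1.16 against 0.06 to 0.16 in the other tissues. It was also liver for Cd14, a co-receptor for bacterial lipopolysaccharide, at 1.32 against -0.32 to 0.11, and for Mt1 at 0.40 against -0.43 to -0.27. It was jejunum for Ctrb1, a pancreatic protease precursor, at 1.34 against -0.14 to 0.18, and for Ephx1, an epoxide hydrolase, at -0.56 against -0.15 to -0.09. Smaller departures in jejunum were those of Csf3r, at 0.19 against 0.11 to 0.13, Metap1d, at -0.30 against -0.22 to -0.20, and Psmc1, at -0.10 against -0.13 to -0.12. It was spleen for Rps27, a ribosomal protein, at -1.54 against -0.15 to -0.08, and for Ndufv1, a respiratory chain subunit, at 0.049 against -0.097 to -0.056. In distal colon Dtd1 was at -0.28 against -0.22 to -0.20. Rbm47, which was called, had its smallest decrease in ileum, at -0.27 against -0.58 to -0.54.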

How the results depend on the processing

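With 3 genes called higher and 6 lower, the calls depended on the settings. Without a floor, with a floor at percentile 35, or with a pseudocount, 5 were called higher and 9 lower, all 9 genes of the report among them. With the mean of all probe sets 5 of the 9 were called, Cirbp, Hspe1, Mir22hg, S100a8 and Smim8. With both arrays above the median in every tissue 7 of the 9 were called, all but Rbm47 and S100a8, which did not meet that filter. With a floor at percentile 65, without the filter, without the trend, or without moderation, limma called 0 higher and 0 lower, with lowest adjusted p-values of 0.084, 0.20, 0.061 and 0.16 and, at an unadjusted p under 0.05, 218, 328, 280 and 210 higher and 1037, 1160, 1021 and 1019 lower genes. With no replicate block, so that tissue differences entered the error, 0 and 0 were called, with 2 higher and 3 lower at an unadjusted p under 0.05. Leaving out 1 tissue gave 0 to 5 higher and 0 to 12 lower calls, and even shifts over the 4 others in 37, 46, 50, 48 and 60 higher and 187, 130, 225, 227 and 157 lower genes without jejunum, ileum, distal colon, liver and spleen. Even shifts numbered 8 higher with a floor at percentile 65, 38 higher and 54 lower after centring, and 59 lower after quantile normalization. The median over all genes was 0.0033 after centring, -0.0030 after quantile normalization, 0.0057 without the filter, and between -0.032 and -0.021 without 1 tissue. Of 1768 values of named genes under alternatives, 1665 kept direction and side of the threshold, 78 lost and 15 gained a call, and 10 changed sign. With the mean of all probe sets Actn1, Isoc1 and Rps6 were at -0.063, -0.0063 and -0.056, and with a floor at percentile 65 Klrk1 and Robo4 at -0.023 and -0.0093. Without 1 tissue Ctrb1 ranged from -0.0087 to 0.36, Cd14 from -0.070 to 0.34, Clock from -0.047 to 0.056, Klf1 from -0.27 to 0.013 and Rora from -0.098 to 0.0066. The cause of these changes was not tested.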

Other observations

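Among the 1363 probe sets without a gene symbol here that lay above the array median in every tissue, 9 were evenly higher (0.66%) and 19 evenly lower (1.39%). The probe set 1425584_x_at was higher by 1.31 ± 0.23 and 1455869_at by 1.14 ± 0.29 (SD over 5 tissues), both more than any gene with a symbol except BC018473 and Saa3 in the mean. The probe set 1427820_at was lower by -0.63 ± 0.06 and 1435171_at by -0.36 ± 0.07. Of the 64 control probe sets, 0 had an even shift, 0 were higher in all 5 tissues and 4 were lower in all 5.

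Some neighbours of genes with an even shift shared it. Of 44 next member genes along the chromosomes to the evenly higher genes, 2 were evenly higher (4.55%), where 0.212% of all members were. Of 194 next to evenly lower genes 4 were evenly lower (2.06%), where 0.944% of all members were. Each adjacent pair counts from both sides, so the counts rest on few pairs. The adjacent pairs were BC018473 and St6galnac1 on chromosome 11, Vamp2 (-0.21), a synaptic vesicle fusion protein, and Per1 (-0.30) on chromosome 11, and Map2k5 (-0.16) and 2300009A05Rik (-0.18) on chromosome 9.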
